A study of Oryza sativa with 8 samples.

Results

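This is an account of 34 rice loci whose transcripts were abundant in an SDG708 RNAi line and nearly absent from wild-type seedlings, out of 34119 loci in the deposited table. A locus was taken when it had at least 1 FPKM (read counts scaled to gene length and a factor per library) in all 3 RNAi libraries. Its lowest RNAi value also had to be over 16 times the highest value of the 5 wild-type libraries. The rule found 38 loci, 0.111% of the table, and 4 loci listed as seed storage genes were set aside. Because these values chose the loci, their contrast between genotypes is described and was not tested. The working name of the set, loci expressed only in the RNAi line, holds in part: 6 of the 34 had no read in any wild-type library, and 28 had at least 1.

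The samples were 14-day-old seedlings. WT_control was untreated wild-type rice, called NIP in the series (n = 3). WT_PEG was the same wild-type after 3 h in 20% PEG8000, a polyethylene glycol that withdraws water from tissue (n = 2). 708RNAi_PEG was the SDG708 knockdown line 708Ri-1-1 after the same PEG treatment (n = 3). All seedlings had grown on solid medium and then in liquid medium under short days.

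The RNAi libraries all carry the name of 1 line, so the knockdown and any other feature of that line cannot be told apart. All 3 had PEG, and with no untreated RNAi library a genotype difference and one that needs PEG cannot be told apart either. Nothing in the labels says that replicates came from separate plants, and p-values measure the spread between these libraries. In these bulk samples fewer cells of a type and less RNA per cell cannot be told apart.

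SDG708 belongs to the SET-domain proteins, enzymes that place methyl groups on histone H3. Methylated H3 marks the bodies of transcribed genes or the chromatin of silent ones, depending on the lysine that carries the mark, and neighbouring genes in plants can share a chromatin state. RNA interference lowers the transcript of its target through small RNAs cut from double-stranded RNA. The row of SDG708 was not analysed here, so the knockdown was not checked. The files and tables used here give the 34 loci no name and no product, so they are called by their identifiers, and their sequences are not shown.

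Recovered reads per library ran from 30817289 to 49706703, and 1 read on a gene of 1000 bp was worth 0.0208 to 0.0329 FPKM. The reads were 87.0 to 91.3% of the library factor in FPKM for WT_control and 97.3 to 98.3% for WT_PEG. For the RNAi line they were 101.4 to 103.3%, so the scaling differed between groups. Scaling to total recovered reads gave the same 34 loci. Loci listed as leaf photosynthesis genes were abundant in all 8 libraries, with a summed level over 4 loci of 16759 to 19605 FPKM in WT_control, 8953 to 9615 FPKM in WT_PEG and 7138 to 7636 FPKM in the RNAi line. The 3 loci listed as root-preferential summed to 422 to 455 FPKM in WT_control, 63.5 to 64.3 FPKM in WT_PEG and 50.1 to 53.8 FPKM in the RNAi line.

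The summed level of the 34 loci was 439.7, 415 and 446 FPKM in RNAi replicates 1, 2 and 3, from 23523, 18335 and 29576 reads. In the wild-type libraries the sum was 1.82, 1.63 and 2.13 FPKM without PEG and 2.18 and 2.08 FPKM with PEG, from 102 to 138 reads a library. The 3 RNAi libraries were thus close to each other, and the wild-type groups were both far below them. Mean RNAi levels ran from 1.17 to 97.8 FPKM with a median of 4.37 FPKM, against a median of 5.95 FPKM over all 18518 loci with at least 1 FPKM in every RNAi library. Of the 34, 8 lay above 10 FPKM, 4 between 5 and 10 FPKM, 15 between 2 and 5 FPKM and 7 below 2 FPKM.

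**Figure D1:**
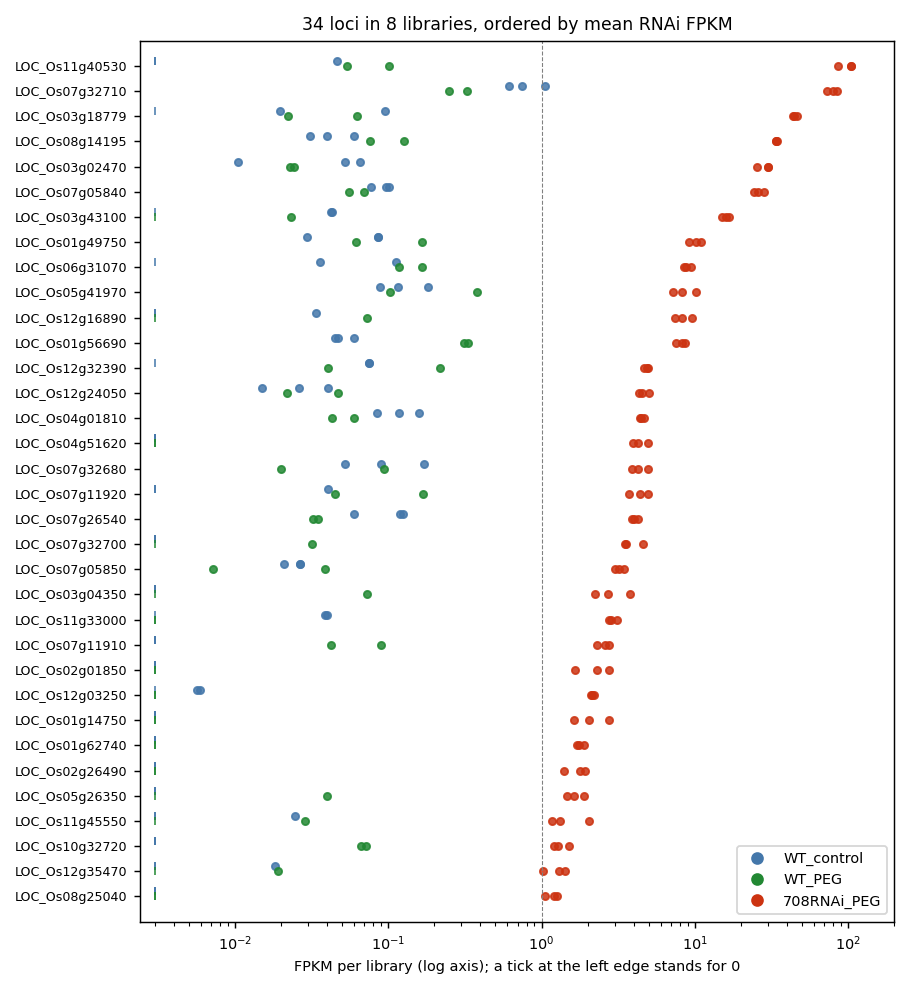
FPKM on a log axis (x) of each of the 34 loci (y, ordered by mean RNAi level) in each of the 8 libraries, 1 point per library coloured by group, with a tick at the left edge for 0. All RNAi points lie at or above 1 FPKM, and all wild-type points but 1, at 1.05 FPKM, lie below 1 FPKM.

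LOC_Os11g40530 had the highest level of the set. It was at 104, 86.0 and 104 FPKM in the RNAi libraries, at 0, 0 and 0.0462 FPKM in WT_control and at 0.101 and 0.0539 FPKM in WT_PEG. The wild-type values stood for 4 reads in 5 libraries and the RNAi values for 6139 reads in 3. The ratio of mean FPKM was 2431, the largest among the 28 loci with a wild-type read.

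LOC_Os07g32710 was next, at 80.0, 72.4 and 84.7 FPKM in the RNAi libraries. It was at 0.748, 0.617 and 1.05 FPKM in WT_control and at 0.248 and 0.326 FPKM in WT_PEG. It was the 1 locus of the set that passed 0.5 FPKM in any wild-type library, and its 165 wild-type reads were the most of the 34. The wild-type groups did not overlap, with both PEG libraries below all untreated ones.

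LOC_Os03g18779 was at 43.4, 46.1 and 44.1 FPKM in the RNAi libraries and between 0 and 0.0960 FPKM in the wild-type ones. LOC_Os08g14195 was at 33.98, 33.69 and 34.54 FPKM, with 0.0312, 0.0401 and 0.0597 FPKM in WT_control and 0.0760 and 0.128 FPKM in WT_PEG. The RNAi libraries differed least for this locus, the highest being 1.03 times the lowest. LOC_Os03g02470 was at 29.9, 30.1 and 25.3 FPKM and LOC_Os07g05840 at 25.9, 28.3 and 24.5 FPKM, and neither passed 0.102 FPKM in wild-type. These 4 loci had 10, 31, 16 and 45 wild-type reads in all, in the order given.

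The next 6 loci by level were LOC_Os03g43100 at 15.97 ± 0.831 FPKM in the RNAi line (SD, n = 3), LOC_Os01g49750 at 10.1 ± 0.936, LOC_Os06g31070 at 8.87 ± 0.466, LOC_Os05g41970 at 8.53 ± 1.51, LOC_Os12g16890 at 8.41 ± 1.06 and LOC_Os01g56690 at 8.14 ± 0.564 FPKM. Their highest wild-type values were 0.0428, 0.166, 0.167, 0.382, 0.0733 and 0.331 FPKM. Every RNAi library of these 6 loci lay above every wild-type library, as the rule requires.

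The 6 loci with no wild-type read were mostly weak. LOC_Os04g51620 was at 4.98, 4.25 and 3.97 FPKM in the RNAi libraries, LOC_Os02g01850 at 1.65, 2.75 and 2.30 FPKM, and LOC_Os01g14750 at 1.62, 2.05 and 2.74 FPKM. LOC_Os01g62740 was at 1.90, 1.70 and 1.75 FPKM, LOC_Os02g26490 at 1.92, 1.78 and 1.39 FPKM, and LOC_Os08g25040 at 1.201, 1.050 and 1.253 FPKM. A count of 0 bounds their wild-type level from above, and the bound is loose for short loci. Against a floor of 3 reads over the 5 wild-type libraries, LOC_Os02g01850 was at least 170-fold higher and LOC_Os01g62740 at least 142-fold higher in the RNAi line, while LOC_Os08g25040, with 13, 9 and 17 RNAi reads on a length of 282 bp, was at least 21.2-fold higher. The floors cover counting error only.

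Over the whole set the RNAi counts ran from 9 to 5716 reads per library, and 8 loci had fewer than 50 reads in some RNAi library. The 5 wild-type libraries together held a median of 4.5 reads per locus, and 21 loci had 10 reads or fewer. WT_control replicates 1, 2 and 3 had a read on 18, 17 and 18 of the 34 loci, and WT_PEG replicates 1 and 2 on 24 and 21. Most of these loci thus had few wild-type reads or none. In the authors' deposited table the log2 fold change of the RNAi line against wild-type under PEG ran from 4.27 for LOC_Os10g32720 to 10.82 for LOC_Os12g03250, with a median of 7.04.

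The threshold did not fall in a gap between loci. The 5 loci just inside it were LOC_Os10g32720, LOC_Os05g41970, LOC_Os12g32390, LOC_Os07g11920 and LOC_Os07g32680, whose lowest RNAi value was 16.9, 18.9, 21.2, 21.8 and 22.7 times the highest wild-type value. The 5 just outside were LOC_Os01g25510, LOC_Os04g09450, LOC_Os01g35330, LOC_Os12g07180 and LOC_Os07g11410, at 15.9, 15.8, 15.6, 14.9 and 14.3 times. Of these LOC_Os01g35330 was the most abundant, at 93.6 to 94.6 FPKM in the RNAi line and 2.01 to 6.003 FPKM in wild-type. At the other end, 19 of the 34 passed a ratio of 64, the 6 loci with no wild-type read among them.

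The mirrored rule found no locus. Of 17497 loci with at least 1 FPKM in all wild-type libraries, 0 (0%) had a lowest wild-type value over 16 times the highest RNAi value, against 0.205% of the 18518 loci that could pass in the other direction, the seed storage loci counted. With a ratio over 8 and the seed storage loci set aside there were 48 loci high in the RNAi line and 4 high in wild-type, and with a ratio over 4 there were 78 and 23. The directions are not fully alike, since one takes the lowest of 3 libraries over the highest of 5 and the other the lowest of 5 over the highest of 3.

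**Figure D2:**
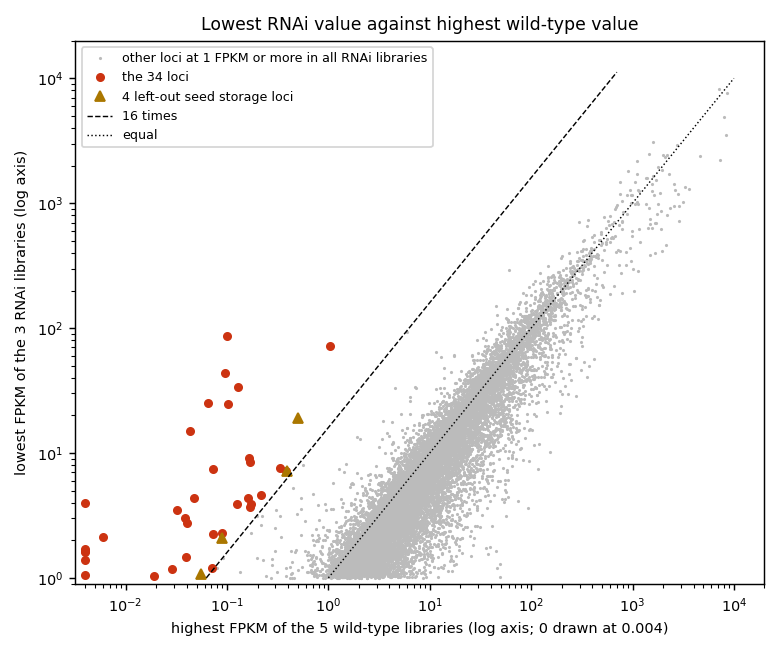
Highest FPKM of the 5 wild-type libraries (x, log axis, 0 drawn at the left edge) against the lowest FPKM of the 3 RNAi libraries (y, log axis) for the 18518 loci with at least 1 FPKM in all RNAi libraries. The 34 loci (circles) and the 4 seed storage loci (triangles) lie above the dashed line of 16 times, apart from the main body of loci along the dotted line of equal values.

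The 4 seed storage loci that were set aside met the rule as well, so their levels are a description. LOC_Os07g10580 was at 18.9, 20.5 and 22.5 FPKM in the RNAi line and at 0 to 0.501 FPKM in wild-type, and LOC_Os07g11330 at 8.36, 7.23 and 8.97 FPKM against 0.0381 to 0.391 FPKM. LOC_Os02g15150 and LOC_Os02g16820 were at 2.10 to 2.42 FPKM and 1.08 to 1.30 FPKM in the RNAi line, and neither passed 0.0892 FPKM in wild-type. The list summed to 30.8 to 34.9 FPKM in the RNAi line and 0.176 to 0.772 FPKM in wild-type. The part of seed transcripts in the values of the 34 loci was not tested, and since the files name no products, further seed storage genes could be among the 34, on chromosome 7 or elsewhere.

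The RNAi libraries were alike for most of the set. The highest RNAi value of a locus was a median of 1.20 times its lowest, against 1.10 over all loci with at least 1 FPKM in every RNAi library. The ratio was above 1.5 for 4 loci (11.8% of the set, and 1.51% of those loci). The 4 were LOC_Os11g45550 (1.72 times), LOC_Os01g14750 (1.69 times), LOC_Os03g04350 (1.68 times) and LOC_Os02g01850 (1.67 times), and LOC_Os05g41970 followed at 1.41 times. These 4 rested on 173, 70, 126 and 305 reads over the 3 libraries, few against the 13105 of LOC_Os07g32710. The highest value lay in replicate 1 for 8 loci, in replicate 2 for 8 and in replicate 3 for 18.

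The loci were short. Their lengths, recovered from the FPKM steps, had a median of 1072 bp and ran from 178 bp for LOC_Os04g51620 to 4863 bp for LOC_Os12g24050. A length was the smallest that suited all libraries with a read. For the 6 loci with no wild-type read, LOC_Os04g51620 among them, these were the 3 RNAi libraries alone. A length that is too short is thus likelier for these loci. The median over loci with at least 1 FPKM in all RNAi libraries was 3193 bp, and 30 of the 34 lay below it. Of the set, 17 loci (50%) were under 1000 bp, against 9.94% of the loci compared. Length enters FPKM, so the same number of reads gives a higher FPKM on a short locus. The loci compared had passed the same minimum of 1 FPKM. The difference was not adjusted for this, and its cause was not tested.

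Position was read from the identifiers, which give the chromosome and the order of loci along it. Distances are counted in places among the 34068 table loci that carry such an identifier, not in bases, because the files hold no coordinates. The 34 loci lay on 11 of the 12 chromosomes, with none on chromosome 9. Chromosome 7 held 8 loci, 23.5% of the set, and 7.55% of the loci with at least 1 FPKM in all RNAi libraries. With a ratio over 32 it held 4 of 24. Chromosome 12 held 5 (14.7%, and 5.35% of those loci), chromosomes 1 and 3 held 4 each, chromosome 11 held 3, chromosomes 2, 4, 5 and 8 held 2 each, and chromosomes 6 and 10 held 1 each. These shares are a description of a set chosen on its values, and no test was made of them.

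**Figure D3:**
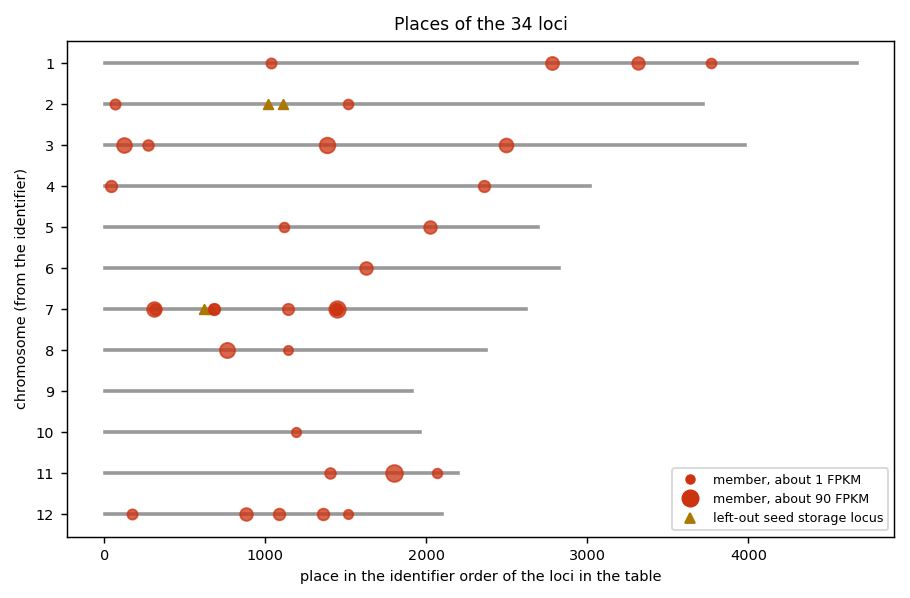
Place of each of the 34 loci (circles, larger for a higher mean RNAi FPKM) and of the 4 seed storage loci (triangles) in the identifier order of the table's loci (x, in places) on each of the 12 chromosomes (y). Chromosome 7 holds 8 circles, some of which coincide at this scale, and chromosome 9 none.

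Neighbouring loci of the set were found on chromosome 7 alone. A run was counted where members followed each other within 10 places, and there were 3 runs with 7 of the 34 loci. Within each run the members were next to each other in the table. Elsewhere the closest pair was LOC_Os03g02470 and LOC_Os03g04350, 151 places apart. The distance from one member to the next on a chromosome was thus either 1 place or at least 151. A minimum of 0.5 FPKM in place of 1 gave 4 runs, 1 of them not on chromosome 7. LOC_Os05g26460, 2 places from the member LOC_Os05g26350, was at a mean of 0.827 FPKM in the RNAi line and 0 in both wild-type groups. LOC_Os05g26240, LOC_Os05g26440, LOC_Os05g26490 and LOC_Os05g26100 were also at 0 in both wild-type groups, with RNAi means of 0.0959, 0.0544, 0.119 and 0.00388 FPKM. LOC_Os05g26480 was at 0.0466 FPKM in the RNAi line, 0.0251 FPKM in WT_PEG and 0 in WT_control. LOC_Os05g26210 was at 0.0194, 0.0187 and 0.290 FPKM in that order. LOC_Os05g26140, LOC_Os05g26194 and LOC_Os05g26610 had lower means in the RNAi line than in WT_PEG, the last at 0 against 0.0218 FPKM. With a ratio over 4 in place of 16, 20 of 78 loci lay in 7 runs.

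The first run was LOC_Os07g05840 and LOC_Os07g05850. LOC_Os07g05840 is described above, and LOC_Os07g05850 was at 3.00, 3.46 and 3.22 FPKM in the RNAi libraries, 0.0208, 0.0268 and 0.0266 FPKM in WT_control, and 0.00726 and 0.0388 FPKM in WT_PEG. Both were highest in RNAi replicate 2. The locus before them, LOC_Os07g05830, was at 0.171, 0.231 and 0.173 FPKM in the RNAi line and 0.0224 to 0.0433 FPKM in wild-type, so it too was higher in every RNAi library, but it did not pass the filter for a test. On the other side LOC_Os07g05870 was at 4.72, 5.20 and 4.44 FPKM in the RNAi line and 4.90 and 5.39 FPKM in WT_PEG, and LOC_Os07g05880 at 23.5, 22.9 and 23.8 FPKM and 23.9 and 23.4 FPKM. These last did not pass the test (limma adjusted p = 0.398 and 0.828).

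The second run was LOC_Os07g11910 and LOC_Os07g11920. They were at 2.75, 2.60 and 2.29 FPKM and at 4.41, 3.70 and 4.97 FPKM in the RNAi libraries, with 3 and 6 wild-type reads in all. The seed storage locus LOC_Os07g11330 lay 18 places before LOC_Os07g11910, and LOC_Os07g10580 lay 62 places before it. In between, LOC_Os07g11870 was at 0.435, 0.508 and 0.597 FPKM in the RNAi line against 0.0151 to 0.0458 FPKM in wild-type. LOC_Os07g11900, beside the run, was at 0.184, 0.116 and 0.551 FPKM in the RNAi line and at 0 in all wild-type libraries. Both lay higher in every RNAi library, below the minimum of 1 FPKM. So did LOC_Os07g11790, at 0.0771, 0.149 and 0.149 FPKM against at most 0.0120 FPKM in wild-type. LOC_Os07g12080, after the run, was at 0.0389, 0.0492 and 0.124 FPKM against 0. Values this low can rest on single reads, since 1 read on a gene of 1000 bp was worth 0.0208 to 0.0329 FPKM. The other neighbours within 5 places did not lie higher in every RNAi library. LOC_Os07g11890 reached 0.00708 FPKM in RNAi libraries and 0.0139 FPKM in wild-type ones, and LOC_Os07g11970 after the run 0.00918 and 0.0180 FPKM. LOC_Os07g11980 was at 0 in all RNAi libraries. At LOC_Os07g11770, LOC_Os07g12090 and LOC_Os07g12100 the RNAi and wild-type values overlapped.

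The third run was LOC_Os07g32680, LOC_Os07g32700 and LOC_Os07g32710. The first was at 4.24, 3.91 and 4.98 FPKM in the RNAi libraries, 0.0899, 0.0521 and 0.172 FPKM in WT_control, and 0.0940 and 0.0201 FPKM in WT_PEG. LOC_Os07g32700 was at 3.51, 3.58 and 4.62 FPKM in the RNAi libraries, with 1 read in WT_PEG replicate 2 and none in the other wild-type libraries. All 3 were highest in RNAi replicate 3. The loci at both edges of the run were at like levels in the PEG groups. LOC_Os07g32670, just before it, was at 4.85, 4.73 and 4.81 FPKM in the RNAi line and 4.954 and 4.803 FPKM in WT_PEG (limma adjusted p = 0.767), and LOC_Os07g32730, just after it, at 0.970, 0.860 and 0.850 FPKM and 0.959 and 1.10 FPKM. Farther out on the same side as LOC_Os07g32670, LOC_Os07g32630 was higher in the RNAi line (log2 fold change 0.71, limma adjusted p = 0.00031), as was LOC_Os07g32620 (0.39, limma adjusted p = 0.0066), and LOC_Os07g32650 was lower (-0.27, limma adjusted p = 0.00335). Whether neighbouring loci overlap or resemble each other in sequence is not stated in the labels or files, and reads shared by such loci could be counted for either.

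**Figure D4:**
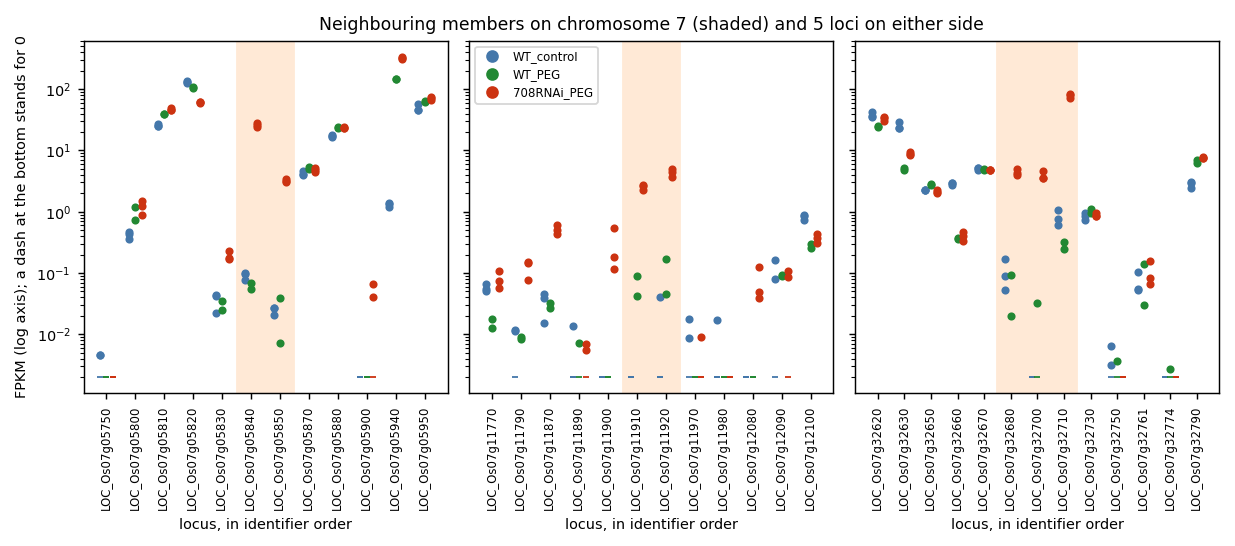
FPKM (y, log axis, with a dash at the bottom for 0) in each library for the 3 runs on chromosome 7 (shaded) and the 5 table loci on either side (x, in identifier order), coloured by group. RNAi points stand far above wild-type points inside the shading, and at LOC_Os07g32670 beside the third run all 8 libraries lie between 4.73 and 5.23 FPKM.

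Loci beside the members were tested, since they were not chosen on their values, beyond the removal of members and seed storage loci. The test was limma on log2(FPKM + 1) over all 20943 loci that passed the filter, with Benjamini-Hochberg adjustment. Up to 5 table loci on either side of each member made 300 loci, of which 176 were tested. In the RNAi line 43 were higher and 31 lower than in wild-type under PEG, 42.0% in all, against 37.6% of all loci tested (21.3% higher and 16.4% lower). The median log2 fold change was -0.01 beside the members and 0.01 over all loci. Among the 35 tested loci directly next to a member 7 were higher and 10 lower (48.6%). The share over 5 places on either side lies near the background. Scaling to total recovered reads turned the split beside the members to 36 higher and 39 lower. It turned the split over all loci in the same way, to 3435 higher and 4425 lower.

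Single neighbours did change. LOC_Os04g01850, next to LOC_Os04g01810, was at 11.6 ± 1.53 FPKM in the RNAi line (SD, n = 3) and 2.45 ± 0.630 FPKM in WT_PEG (SD, n = 2), and at 2.99 FPKM in WT_control. Its log2 fold change between the PEG groups was 1.88 ± 0.17 (SE), with a limma adjusted p of 4.58e-05. LOC_Os02g26430, 4 places from LOC_Os02g26490, was at 13.0 ± 1.52 against 4.10 ± 0.206 FPKM and at 0.285 FPKM without PEG. LOC_Os07g05940, 4 places after the first run, was at 326 ± 12.04 against 146 ± 2.11 FPKM and at 1.32 FPKM without PEG. Of the 176, these 3 passed a log2 fold change of 1 (1.70%, against 261 of the 20943 loci tested), and 0 fell by as much. With a pseudocount of 0.1 the count was 6 (3.41%, against 2.16% of all loci tested), and with limma-voom 7 (3.98%, against 2.40%). The counts over all loci tested include the 34 members and the seed storage loci, which were chosen as higher in the RNAi line. The loci beside members leave them out, so the background shares are raised by that choice.

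The other 2 of the 5 largest rises were, like LOC_Os04g01850, next to a member. LOC_Os08g14190, before LOC_Os08g14195, was at 1.67 ± 0.106 against 0.365 ± 0.0107 FPKM (log2 fold change 0.97 ± 0.06, limma adjusted p = 5.26e-06), and LOC_Os07g26550, after LOC_Os07g26540, at 4.59 ± 0.463 against 2.30 ± 0.202 FPKM. LOC_Os08g14190 had 0.946 FPKM in WT_control, so it was above both wild-type groups. The largest fall on the log2(FPKM + 1) scale was that of LOC_Os07g05820, 2 places before the first run, at 61.0 ± 1.255 against 107 ± 3.02 FPKM, a log2 fold change of -0.80 ± 0.05 (limma adjusted p = 4.45e-06). LOC_Os01g14670, LOC_Os11g45710, LOC_Os10g32760 and LOC_Os04g01690 followed, with log2 fold changes of -0.56, -0.51, -0.51 and -0.49. With a pseudocount of 0.1 LOC_Os10g32760 fell more than LOC_Os07g05820 (-0.84 against -0.81), as it did with limma-voom (-0.84 against -0.79).

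**Figure D5:**
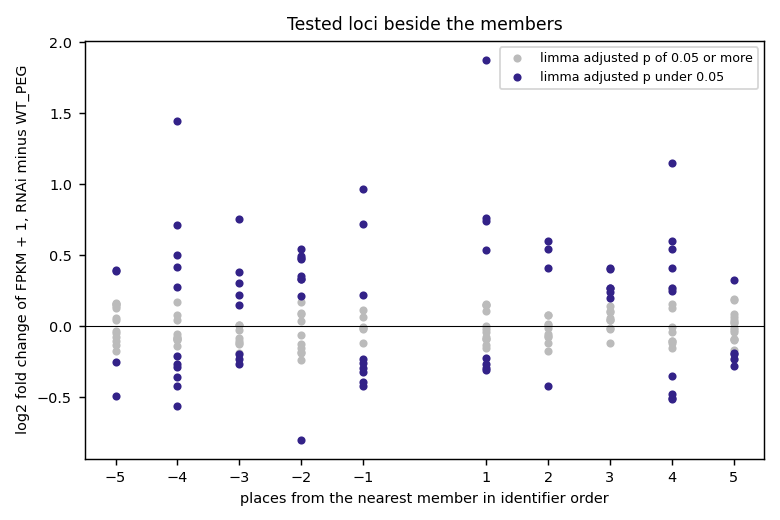
Log2 fold change of FPKM + 1 between the RNAi line and WT_PEG (y) of the 176 tested loci beside the members, by the number of places from the nearest member (x). Dark points have a limma adjusted p under 0.05 (43 above and 31 below 0), and the 3 points above a log2 fold change of 1 lie 4 places before, 1 place after and 4 places after a member.

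The last comparison asked whether PEG moved the set in wild-type, a direction that the rule did not fix. The rule did require low wild-type values, and all 34 loci passed the filter through the RNAi libraries alone, so nothing is read from their share of calls. By limma 1 of the 34 rose and 1 fell under PEG (5.88%), against 75.3% of all loci tested (38.6% higher and 36.8% lower), and 2 had an unadjusted p under 0.05. A pseudocount of 0.1 in place of 1 gave 7 higher and 3 lower, so the count depends on how low values are weighted. With so few wild-type reads small differences were not detectable at this depth. In 7 loci both WT_PEG libraries lay above all WT_control libraries, and in 4 both lay below, against 42.4% and 40% of all loci tested, and nothing is read from this either.

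LOC_Os01g56690 was the locus called higher under PEG in wild-type. It was at 0.0468, 0.0453 and 0.0598 FPKM in WT_control and at 0.310 and 0.331 FPKM in WT_PEG, from 10 and 38 reads. The change on the log2(FPKM + 1) scale was 0.33 ± 0.06 (SE), with a limma adjusted p of 0.000872 (0.00229 with no filter), and 1.48 with a pseudocount of 0.1. The groups did not overlap, and the RNAi line at 8.27, 7.53 and 8.64 FPKM lay far above both. LOC_Os07g32710 was the locus called lower, with a mean of 0.805 FPKM in WT_control and 0.287 FPKM in WT_PEG on 136 and 29 reads. Its log2 fold change was -0.48 ± 0.10 (limma adjusted p = 0.00173, and 0.00613 with no filter), and -1.20 with a pseudocount of 0.1. The other loci of its run had 18 and 6 reads (LOC_Os07g32680) and 0 and 1 read (LOC_Os07g32700) in WT_control and WT_PEG, and neither passed. The limma fit took its spread from all groups, the RNAi libraries included, whose values chose the loci. With the wild-type groups alone no member could be tested. The changes of LOC_Os01g56690 and LOC_Os07g32710 are thus a description.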

How the data were processed

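The authors deposited 1 table for the 8 seedling libraries, with FPKM per locus in each library and averaged per group. For each of 2 comparisons it also holds a deposited log2 fold change and a deposited p-value, the last not used here. Per the submitters' processing notes the tools included HISAT2 and featureCounts, with cutadapt, FastQC, SAMtools, DESeq2 and deepTools, in roles not described. The library kit was stranded, per the labels' protocols. Whether strand was used in counting, the genome build and the annotation remain not given in the sources used here. Groups came from the sample titles.

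Whole reads and gene lengths were recovered from the steps of the deposited FPKM values, for 34119 of 34119 rows within 0.03 reads, as the smallest solution with a whole length, so a length could be a multiple of that given. Loci with at least 1 FPKM in at least 2 libraries were tested on the scale log2(FPKM + 1) by limma (version 3.58.1, R 4.3.3, variance trend, a common model of all groups with 5 degrees of freedom left, two-sided tests, Benjamini-Hochberg, threshold 0.05). The pseudocount shrinks fold changes of low loci. The script was tested on simulated data. The planned edgeR test was not run, because the table holds no counts, and limma-voom on recovered reads was used in its place. 

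The members, lists and tests were chosen with earlier results of these data known. Named loci were the 12 highest members, those in runs of 3 or more, the 5 nearest the threshold on each side, the 5 highest with no wild-type read, the 5 largest rises and falls beside members, members called under PEG, the 5 with the widest RNAi spread and the seed storage loci. Loci named around the runs and beside LOC_Os05g26350, LOC_Os08g25040 and the loci at the ends of a range were added after their values were seen. Same-numbered replicates did not deviate together in all pairs, so no block was used.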

Additional observations from a re-analysis of the deposited data

How the results depend on the processing

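The number of loci meeting the rule and the number of runs stayed within 1.5 times of the values reported with ratios of 8 and 32, other FPKM minimums, total-read scaling, WT_PEG alone as wild-type and 1 library left out, with 24 loci at a ratio over 32 and 48 at a ratio over 8. Ratios farther from 16 went beyond this, with 78 loci in 7 runs over 4 and 19 loci over 64. The median spread between RNAi libraries stayed within 1.5 times with total-read scaling and with 1 RNAi library left out. All 34 loci were again found when any 1 library was left out (34 to 36 loci). That outcome was fixed in advance, because leaving out a library can only loosen the rule. The same holds for a ratio over 8, a minimum of 0.5 FPKM and WT_PEG alone as wild-type, so nothing is read from it. At a ratio over 32, 4 loci lay in runs in place of 7. A minimum of 0.5 FPKM in the RNAi line gave 4 runs, 1 of them not on chromosome 7. Without either WT_PEG replicate the RNAi comparison called fewer loci lower, and the count over all loci ran from 2119 to 4049 when 1 library was left out. Beside the members, 2 loci on either side gave 18 higher and 12 lower (44.1%) and 10 gave 75 and 59 (36.9%). Leaving out 1 library moved these 5-place counts between 33 and 52 higher and between 21 and 38 lower. With scaling to total recovered reads, the median PEG response over all loci went from 0.02 to -0.10 (log2).

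The PEG response of the members depended most on the scale: a pseudocount of 0.1 called 7 higher and 3 lower, and limma-voom, added after seeing the data, 5 higher and 3 lower. Without WT_PEG replicate 1, 2 were higher, and the other leave-one-out fits gave 1. With the wild-type groups alone no member passed the filter, so that fit gave no value. With the replicate block the calls were 40 higher and 31 lower beside the members and 1 and 1 under PEG. Same-numbered libraries of different groups had correlations of deviations from -0.234 to 0.361, and the labels tie the numbers to nothing shared. All 12 named fold changes kept their calls in 156 alternative fits, and for those of members under PEG nothing is read from this.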
